A study of Mus musculus with 7 samples.

Results

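The genes described here are 10 genes commonly used to recognise border-associated macrophages of the mouse brain: Mrc1, Cd163, Lyve1, Folr2, Stab1, Cbr2, Siglec1, F13a1, Igfbp4 and Pf4. They were taken by symbol from the array's probe annotation, keeping probe sets with exactly 1 gene symbol. This gave 18 probe sets of the 34945 with 1 symbol, and 10 genes of 18193. Macrophages sorted by GFP and F4/80 were profiled on Affymetrix mouse arrays in 2 groups. The GL261 group (n = 4 arrays) came from tumours of GL261, a mouse glioma line, grown for 21 days after intracranial injection in C57/Bl6 hosts carrying transplanted GFP bone marrow. The age of these mice is not given in the sources used here. The normal brain group (n = 3 arrays) came from C57/Bl6 mice 8 weeks old without a tumour. No label states whether mice of the normal brain group had received GFP marrow, nor whether GFP-positive or GFP-negative cells were kept, so it is not known whether marrow-derived or resident macrophages were sorted. Whether arrays came from separate mice or from pooled ones is not stated, and p-values measure only the spread between these arrays.

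Border-associated macrophages live in the meninges, the choroid plexus and the space around brain vessels, whereas microglia live in the brain tissue itself. They are known for endocytic and scavenger receptors that take up glycoproteins, haemoglobin complexes and modified lipoproteins at the brain's borders. None of the 10 genes is exclusive to them: Lyve1 and Stab1 are also expressed by certain endothelial cells, Pf4 and F13a1 by platelets and their precursors, F13a1 by monocytes, Siglec1 by interferon-stimulated macrophages and Mrc1 by alternatively activated ones.

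The values are MAS5 signals, linear intensities that had been scaled so that all arrays share a trimmed mean. All 16 pan-macrophage genes examined were above background on all 7 arrays, where background is the 95th percentile of 27 bacterial control probe sets on each array. The summed signal of these 16 genes was 120458 to 178216 on GL261 arrays and 145268 to 187477 on normal brain arrays. The sorting marker gene Adgre1, which encodes F4/80, had a signal of 6716, 6094, 6240.4 and 5965 on the GL261 arrays, against 8547, 7395 and 8758 on the normal brain arrays. The groups did not overlap, and its log2 fold change of -0.39 was not called by limma (adjusted p = 0.0814). Gapdh signal at its 3' end over that at its 5' end, which depends on RNA quality, was 1.64 to 1.89 in GL261 and 2.39 to 2.43 in normal brain. The two-sided exact permutation p of that difference was 0.0286, the lowest possible with the 35 ways to split 7 arrays. The same ratio for Actb overlapped between the groups, at 1.36 to 1.52 in GL261 and 1.43 to 1.64 in normal brain (two-sided exact permutation p = 0.143). The part of RNA quality in the results was not tested.

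In the GL261 macrophages, 8 of the 10 genes fell, 0 rose and 2, Lyve1 and Siglec1, were not called. A call is an adjusted p under 0.05 in limma over all 12125 genes tested, with 1 probe set per gene. Over all genes tested, 10.1% were called, 4.2% lower and 5.92% higher. The share called lower among the 10 was many times that of all genes. The list had been chosen with earlier results of these data known and was not tested, so this contrast is a description. At an unadjusted p under 0.05 there were 8 lower and 1 higher, against 1326 lower and 1842 higher of the 12125 genes tested. The median log2 fold change was -1.08 over the 10 genes and 0.04 over all genes tested. The groups did not overlap, with GL261 lower, for 7 of the 10 genes, against 10.4% of all genes. They did not overlap with GL261 higher for 1, Siglec1, against 13.1% of all genes (23.4% in either direction). In bulk samples such as these, fewer cells of a type and less RNA per cell cannot be told apart.

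**Figure D1:**
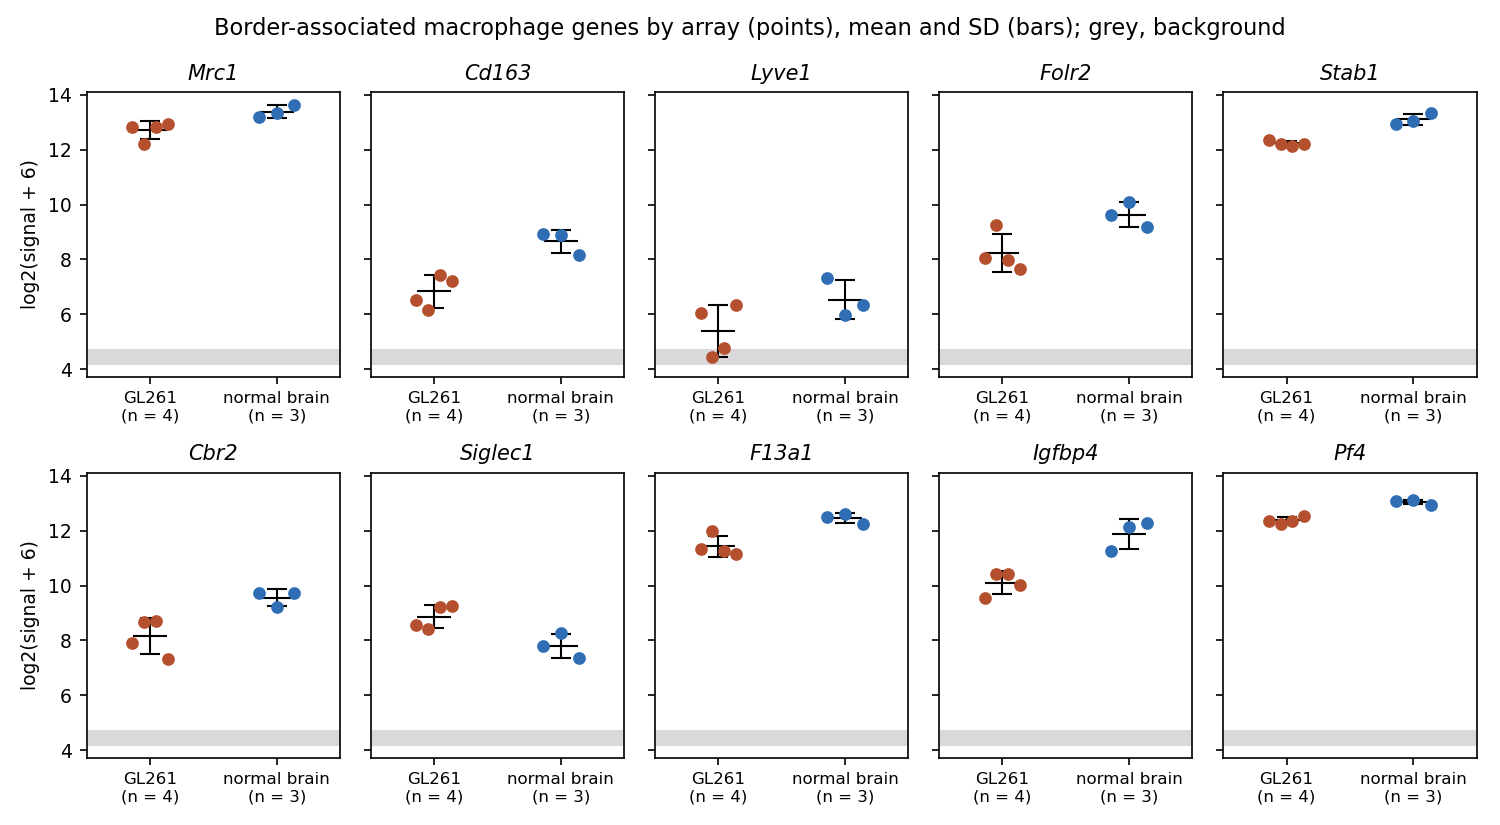
Each panel shows 1 gene through its probe set with the highest mean, with 1 point per array on a log2(signal + 6) axis, GL261 (n = 4) left of normal brain (n = 3), black bars for the mean and SD, and a grey band for the range of background levels over the arrays. Siglec1 is the gene with all GL261 points above all normal brain points, 7 genes show the opposite, and Folr2 and Lyve1 overlap.

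The upstream sequences below are those member windows that held a match in a search for short motifs. RefSeq (GRCm38.p6) gave 10 start sites for 8 of the genes, and the 250 bases before each start were searched on both strands. The motifs were AGGAAGT, the core recognised by the myeloid factor PU.1, TGCTGAC, a part of the MAF recognition element, and CACGTG, an E-box. AGGAAGT was found before 4 of the 10 start sites, 1 each of Mrc1, Folr2, F13a1 and Pf4, against 7.69% of the 32851 start sites in the table. It was not found before the other start sites of Folr2 and F13a1, nor before those of Cd163, Stab1, Cbr2 and Igfbp4. No start site was given for Lyve1 or Siglec1, so every gene searched was one called lower. The motif was therefore not compared between called and uncalled members. TGCTGAC and CACGTG were found before 0 of the 10, against 3.81% and 6.02% of all. The matches lay 211 to 205 bases before the start in Mrc1, 137 to 131 and 82 to 76 in Folr2, 36 to 30 in F13a1 and 10 to 4 in Pf4, and those of Mrc1 and Pf4 were on the opposite strand, where the motif reads ACTTCCT. A match is a description of the letters and not of binding. Capitals mark the motif in these 250 bases, printed 5′ to 3′ on the strand of the gene.
Mrc1, chr2:14229164-14229413, plus strand: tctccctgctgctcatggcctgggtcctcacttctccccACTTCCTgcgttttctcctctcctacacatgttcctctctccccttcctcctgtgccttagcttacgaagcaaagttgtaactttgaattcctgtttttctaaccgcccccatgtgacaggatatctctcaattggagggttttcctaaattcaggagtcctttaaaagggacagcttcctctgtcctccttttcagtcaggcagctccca
Folr2, chr7:101857191-101857440, minus strand: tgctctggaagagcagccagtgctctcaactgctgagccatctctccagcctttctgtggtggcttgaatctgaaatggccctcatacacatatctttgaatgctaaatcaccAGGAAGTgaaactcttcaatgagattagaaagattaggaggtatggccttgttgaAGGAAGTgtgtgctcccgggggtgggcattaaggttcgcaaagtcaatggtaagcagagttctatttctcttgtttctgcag
F13a1, chr13:37049214-37049463, minus strand: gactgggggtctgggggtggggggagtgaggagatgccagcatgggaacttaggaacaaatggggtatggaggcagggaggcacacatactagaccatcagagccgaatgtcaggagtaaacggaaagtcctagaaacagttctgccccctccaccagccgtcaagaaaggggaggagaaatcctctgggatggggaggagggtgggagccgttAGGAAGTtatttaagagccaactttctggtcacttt
Pf4, chr5:90772185-90772434, plus strand: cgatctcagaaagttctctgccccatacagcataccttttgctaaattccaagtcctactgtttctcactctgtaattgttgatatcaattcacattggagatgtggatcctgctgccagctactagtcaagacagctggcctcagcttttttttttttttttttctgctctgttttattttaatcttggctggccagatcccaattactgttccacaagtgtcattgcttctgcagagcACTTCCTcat
The G and C share of the searched windows was 36.8% in Cd163 and 69.2% in Igfbp4, the lowest and highest of the 10, and the median over all windows in the table was 52.4%.

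Mrc1 encodes the mannose receptor CD206, an endocytic receptor for glycoproteins with mannose-rich sugars. Its signal was 7249.9, 4728.5, 7302 and 7725 on GL261 replicates 1 to 4, against 9313, 10328 and 12624 on normal brain replicates 1 to 3. The groups did not overlap, and GL261 replicate 2 lay apart below the other GL261 arrays. Mrc1 fell by 0.69 on the log2 scale, or 1.61-fold (SE 0.19, limma adjusted p = 0.0407). The call was lost in 6 of the 7 fits that left out an array (it held without normal brain replicate 1), where the log2 fold change was -0.78 to -0.52 and the adjusted p reached 0.129 (normal brain replicate 3 left out), and with each array centred on its median (adjusted p = 0.215).

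Cd163 encodes the scavenger receptor for haptoglobin-haemoglobin complexes. Its signal was 86.0, 66.2, 168 and 144 on the GL261 arrays, against 482, 466 and 284 on the normal brain arrays. All GL261 values were below the lowest normal brain value, which was that of replicate 3. Cd163 fell by 1.82 on the log2 scale, or 3.54-fold, with a 95% confidence interval of -2.84 to -0.80 (limma adjusted p = 0.0306). The call was lost in 5 of the 7 fits that left out an array, all but those without GL261 replicate 4 or normal brain replicate 3, with the adjusted p reaching 0.0783 when normal brain replicate 1 was left out, while the log2 fold change stayed between -2.06 and -1.60.

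Stab1 encodes stabilin-1, a scavenger receptor for modified lipoproteins and extracellular matrix fragments. Its signal was 5242, 4724, 4488 and 4688 on the GL261 arrays, against 7901, 8375.5 and 10245 on the normal brain arrays. The GL261 values lay close together, at log2 12.22 ± 0.09 (SD, n = 4), and below all normal brain values, at 13.10 ± 0.20 (SD, n = 3). Stab1 fell by 0.88 on the log2 scale, or 1.84-fold (SE 0.14, limma adjusted p = 0.00378), and was called in all 7 fits without 1 array. Centred on array medians its adjusted p was 0.0560.

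Lyve1, a receptor for hyaluronan known from lymphatic vessels and from perivascular macrophages, had low signal on both of its probe sets. On the one with the higher mean over all arrays, 1453128_at, the signal was 59.7, 15.6, 21.1 and 75.6 on the GL261 arrays, against 155, 56.5 and 74.4 on the normal brain arrays. The groups overlapped, and the log2 fold change of -1.15 was not called (95% confidence interval -2.50 to 0.21, limma adjusted p = 0.268). It was -0.75 without normal brain replicate 1 and -0.43 without that array and GL261 replicate 2, and neither was called. The other one, 1429379_at, had the higher mean signal in normal brain, 128 against 95.2, and the lower one in GL261. Which probe set represented Lyve1 thus depended on the GL261 values. On 1429379_at the signal was 17.6, 19.0, 1.37 and 22.4 on the GL261 arrays, against 178, 174 and 33.0 on the normal brain arrays. The groups did not overlap there, GL261 replicate 3 was under background, and the log2 fold change of -2.54 was not called in the fit over all probe sets (limma adjusted p = 0.0627). This probe set passed the filter on low values only through its normal brain arrays, since its GL261 mean was log2 4.23 and the filter 4.93. Its log2 fold change moved to -3.28 without normal brain replicate 3, with an adjusted p of 0.0314 that the filter likewise leaves without weight. The dim signal and wide confidence intervals leave the size of any Lyve1 difference uncertain.

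Folr2, with 2 copies of AGGAAGT before a start site and 0 before its other one, encodes folate receptor beta, a folate-binding membrane protein of macrophages. Its signal was 261, 598, 249.8 and 193 on the GL261 arrays, against 788, 1073 and 578 on the normal brain arrays. GL261 replicate 2 reached the normal brain range, and the other GL261 arrays were below it. Folr2 fell by 1.40 on the log2 scale, or 2.64-fold (SE 0.40, limma adjusted p = 0.0484), close to the threshold. Without GL261 replicate 2 the log2 fold change was -1.73 (adjusted p = 0.0157), and the call was lost in 5 of the 7 fits that left out an array, all but this one and that without normal brain replicate 3, where the adjusted p reached 0.139 (normal brain replicate 2 left out).

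Siglec1 encodes sialoadhesin (CD169), a lectin that binds sialic acid on other cells and that interferon is known to raise in macrophages. On probe set 1422161_at its signal was 376, 338, 592 and 602 on the GL261 arrays, against 216, 300.2 and 159.5 on the normal brain arrays. All GL261 values were above all normal brain values, the opposite order to that of the other genes whose groups did not overlap. The log2 fold change of 1.06 was not called (95% confidence interval 0.23 to 1.89, limma adjusted p = 0.0979). It was positive in all 20 alternative settings, at 0.69 to 1.29, and called in 0 of them. In the settings that left out arrays the sign could not change, since the groups did not overlap. The other 2 Siglec1 probe sets were dimmer and their groups overlapped. On 1427668_at the signal was 127, 94.1, 71.2 and 75.2 in GL261, against 179, 34.1 and 47.9 in normal brain, and its log2 fold change, 0.37, was not called either (limma adjusted p = 0.769). On 1427706_a_at, which did not pass the filter, the GL261 signal was 17.7 to 37.0 and the normal brain signal 4.64 to 28.6.

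Of the secreted and enzyme genes, F13a1 encodes the catalytic subunit of coagulation factor XIII, a transglutaminase that cross-links fibrin and matrix. It had AGGAAGT 36 to 30 bases before a start site and 0 copies before its other one. The F13a1 signal was 2561, 4055, 2422 and 2277 on the GL261 arrays, against 5762, 6177 and 4855 on the normal brain arrays. GL261 replicate 2 was the highest GL261 array and still under the lowest normal brain one. F13a1 fell by 1.02 on the log2 scale, or 2.02-fold (SE 0.20, limma adjusted p = 0.00990). It was called in all 7 fits without 1 array, and its adjusted p was 0.0679 with variances that do not follow the mean signal.

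Pf4, whose window held the motif nearest to the start, encodes platelet factor 4 (CXCL4), a chemokine of platelet granules that brain border macrophages also express. Its signal was 5199.6, 4828, 5241 and 5904 on the GL261 arrays, against 8545, 8848 and 7881 on the normal brain arrays. The groups lay apart with little spread in either, and Pf4 fell by 0.67 on the log2 scale, or 1.59-fold (SE 0.13, limma adjusted p = 0.0104). The call held in all 7 fits without 1 array and was lost with arrays centred on their medians (adjusted p = 0.128), with variances that do not follow the signal (0.0682) and without normal brain replicate 1 and GL261 replicate 2 together (0.0563). Of 12 genes of platelets and megakaryocytes measured, 7 to 8 were above background on GL261 arrays and 8 on normal brain arrays. Their summed signal was 698 to 1075 in GL261 and 962 to 1312 in normal brain. By limma 0 of the 8 tested were called, against 10.1% of all genes tested, with 1 higher and 2 lower at an unadjusted p under 0.05. The platelet chemokine Ppbp was the one with the smallest p (log2 fold change -1.62, limma adjusted p = 0.0793). The platelet glycoprotein genes Gp5 and Gp6 were above background on 0 of the 7 arrays, unlike most of the list. The rule for named genes did not select them, and they were named after their values were seen. The part of platelets and megakaryocytes in the Pf4 and F13a1 results was not tested.

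Cbr2 encodes a carbonyl reductase. Its signal was 234, 398, 415 and 155 on the GL261 arrays, against 849, 588 and 838 on the normal brain arrays. The groups did not overlap, and the GL261 arrays varied widely among themselves. Cbr2 fell by 1.40 on the log2 scale, or 2.65-fold (SE 0.39, limma adjusted p = 0.0408). The call was lost in 6 of the 7 fits that left out an array (it held without GL261 replicate 2), where the adjusted p reached 0.100 (normal brain replicate 1 left out).

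Igfbp4 encodes a secreted protein that binds insulin-like growth factors, and it had 6 probe sets. On the brightest, 1437405_a_at, the signal was 735, 1367, 1357 and 1044 on the GL261 arrays, against 2459.9, 4454 and 4951 on the normal brain arrays. The groups lay far apart. Igfbp4 fell by 1.79 on the log2 scale, or 3.45-fold, with a 95% confidence interval of -2.38 to -1.19 (limma adjusted p = 0.00274). It was the one of the 10 genes called in all 20 alternative settings (log2 fold changes -2.21 to -1.25). In the fit over all probe sets, 4 of its 6 probe sets were called lower, with log2 fold changes of -2.07, -1.79, -1.52 and -1.17. The other 2, 1421991_a_at and 1421992_a_at, were dim, with signals of 38.0 to 197 in GL261 and 50.1 to 150 in normal brain. Their log2 fold changes of -0.45 and -0.51 were not called, with 95% confidence intervals of -1.49 to 0.59 and -1.72 to 0.70. The names of 2 called probe sets end in x_at, which on these arrays marks probes that may also bind other transcripts.

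Taken probe set by probe set, 8 of the 17 that passed the filter were called lower and 0 higher, against 2.47% and 2.98% of the 27022 probe sets tested (5.45% in either direction). At an unadjusted p under 0.05 there were 12 lower and 1 higher, against 2676 lower and 3242 higher of the 27022 probe sets tested. The groups did not overlap, with GL261 lower, for 12 of the 17, against 9.45% of all probe sets. Both counts of 12 include Lyve1 1429379_at, which passed the filter only through normal brain, so they are given as a description. The 8 called were 4 of Igfbp4 and those of Cd163, Stab1, F13a1 and Pf4. Adjusted over the larger number of probe sets, Mrc1 (limma adjusted p = 0.0608), Folr2 (0.0659) and Cbr2 (0.0558) were not called, with the same fold changes as above. The calls of these 3 genes therefore rest on the fit with 1 probe set per gene. Leaving out GL261 replicate 3 or normal brain replicate 2 left 4 member probe sets called lower, and leaving out GL261 replicate 1 left 5.

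**Figure D2:**
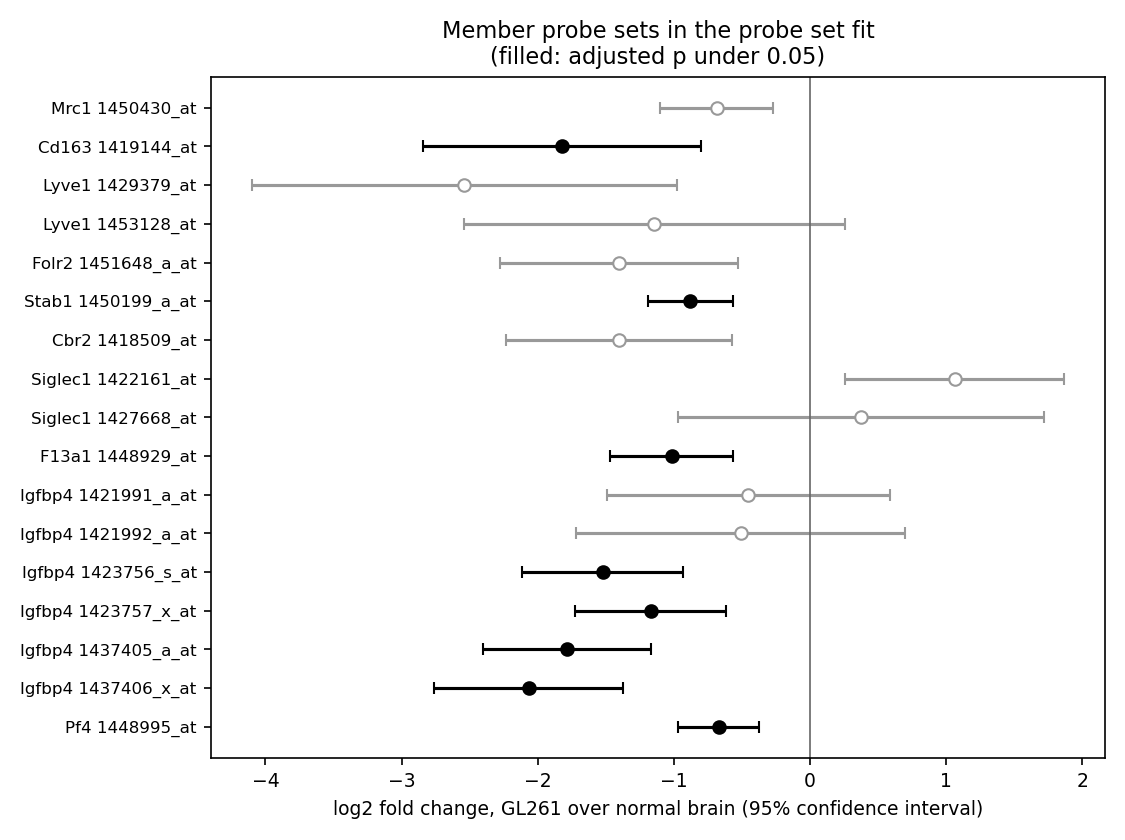
Points are log2 fold changes of GL261 over normal brain for the 17 member probe sets tested, with 95% confidence intervals, filled and black where the adjusted p is under 0.05 in the fit over 27022 probe sets. The 8 filled points lie between -2.07 and -0.67, and the Siglec1 probe sets are the ones right of 0.

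The decreases ranged from 0.67 (Pf4) and 0.69 (Mrc1) to 1.82 (Cd163) on the log2 scale. The confidence intervals of the extremes, -0.96 to -0.38 for Pf4 and -2.84 to -0.80 for Cd163, overlap, and the difference between genes was not tested. The calls of Stab1, F13a1, Igfbp4 and Pf4 held without any single array, while those of Mrc1, Cd163, Folr2 and Cbr2 depended on single arrays of both groups. Over all 20 alternative settings, Mrc1 was called in 8, Cd163 in 12, Folr2 in 8 and Cbr2 in 7, against 19 for Stab1, 19 for F13a1, 17 for Pf4 and 20 for Igfbp4. The number of member genes called lower was 4 when GL261 replicate 1, GL261 replicate 3 or normal brain replicate 2 was left out. It was 5 when GL261 replicate 4 or normal brain replicate 1 was, and 6 when GL261 replicate 2 or normal brain replicate 3 was. The sign of each of the 10 fold changes was the same in every such fit. For the 8 genes whose groups did not overlap, leaving out an array could not change the sign. Over all genes, 237 to 445 were called lower in these fits, against 509 with all 7 arrays, so calls were fewer in general.

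**Figure D3:**
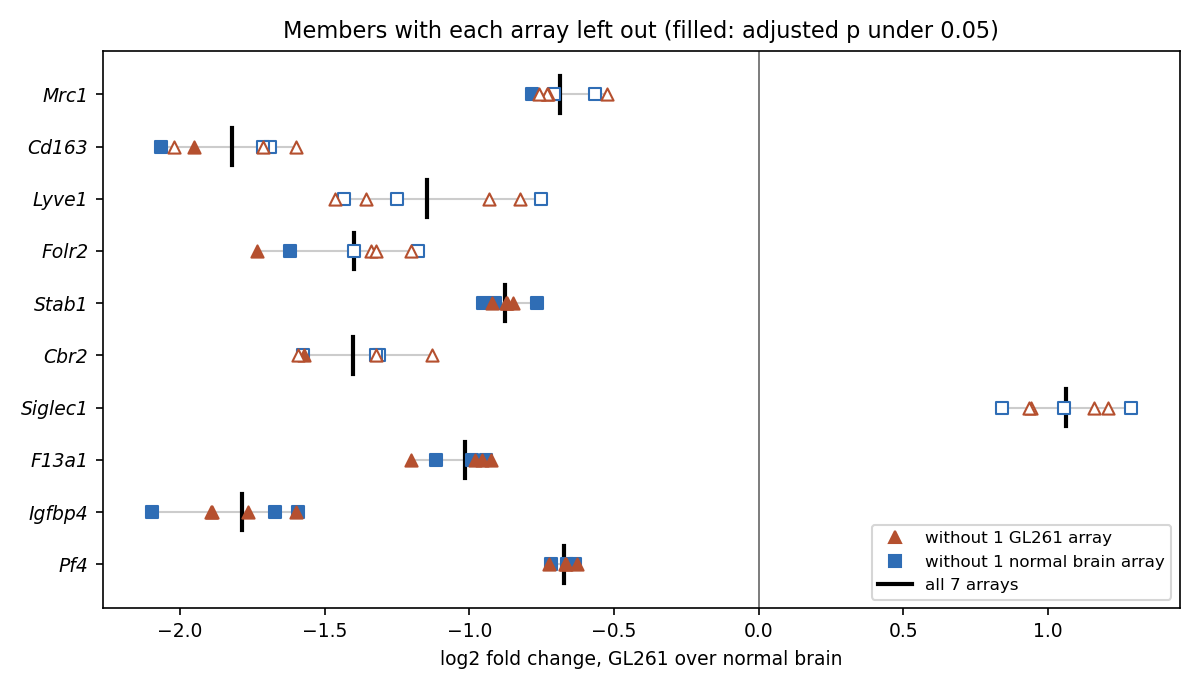
For each gene the black line marks the log2 fold change of GL261 over normal brain with all 7 arrays, triangles the value without 1 GL261 array and squares the value without 1 normal brain array, filled where the adjusted p is under 0.05. All 7 symbols are filled for Stab1, F13a1, Igfbp4 and Pf4, and no symbol of any gene crosses 0. Only for Folr2 and Lyve1, whose groups overlap, could leaving out an array have changed the sign.

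Among the GL261 arrays the genes did not share 1 order. Replicate 2 had the highest GL261 value for 3 of the 10 genes (Folr2, F13a1 and Igfbp4) and the lowest for 5 (Mrc1, Cd163, Lyve1, Siglec1 and Pf4). Replicate 4 was highest for 4 and lowest for 3. Replicate 2 also had the most signal of vessel and red cell genes: the summed signal of 12 endothelial genes was 2827 there and 958 to 1111 on the other GL261 arrays, against 4706 to 6598 on normal brain arrays. For 5 erythroid genes the sums were 4506 in replicate 2 and 93.7 to 216 on the other GL261 arrays, against 9436 to 16102 on normal brain arrays. Without replicate 2, 6 member genes were called lower, and 445 over all genes. F13a1 then had a log2 fold change of -1.20 (limma adjusted p = 0.00121).

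Markers of vessel cells moved with the groups in both directions. For comparison, 4.2% of all genes tested were called lower and 5.92% higher. Of 11 endothelial genes tested, 5 were called lower and 0 higher by limma, with 9 lower and 1 higher at an unadjusted p under 0.05. The transporter gene Slco1a4 had the largest change (log2 fold change -4.69, limma adjusted p = 0.0111; -5.70 without GL261 replicate 2 and -3.97 without GL261 replicate 3), with 2 of 4 GL261 arrays and 3 of 3 normal brain arrays above background. Lymphatic endothelial genes ran the other way, with summed signals of 1538 to 2284 in GL261 and 324 to 887 in normal brain, and 2 of 3 tested were called higher. Their transcription factor Prox1 was above background on 3 of 4 GL261 arrays and on 0 of 3 normal brain arrays, and its GL261 mean was at least 3.01-fold higher. Prox1, 1 of these 2, passed the filter on low values only through GL261, since its normal brain mean was log2 3.31, so its call (limma adjusted p = 0.0230) is no support for a difference. The 11 meningeal fibroblast genes summed to 2974 to 4452 in GL261 and 741 to 2355 in normal brain, and 3 of 10 tested were called higher, led by Col3a1 (log2 fold change 3.58, limma adjusted p = 0.00218; 2.89 without normal brain replicate 1). The part of these cells in the Lyve1, Stab1 and Igfbp4 values was not tested.

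**Figure D4:**
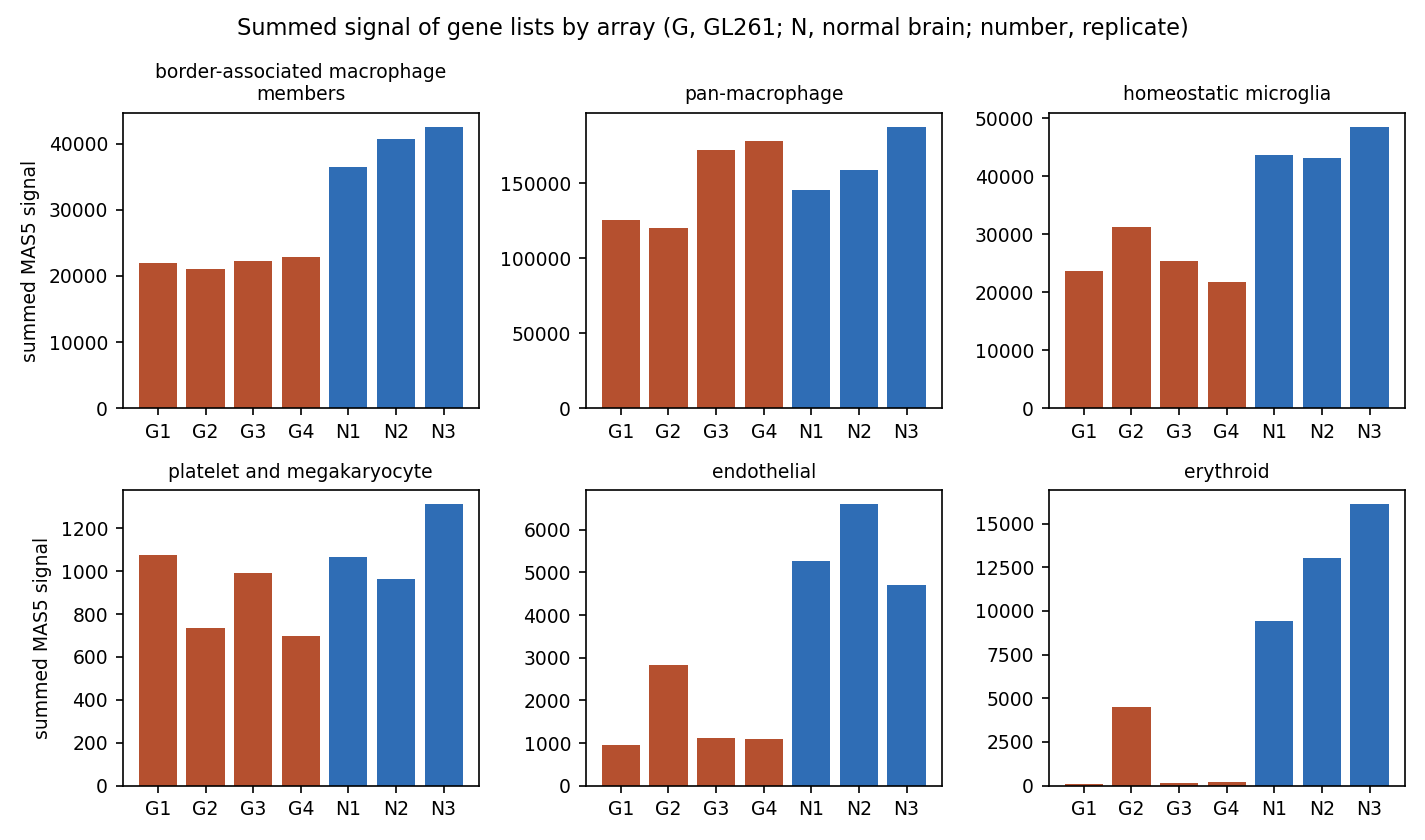
Bars are the summed MAS5 signals of 6 gene lists on each array, GL261 replicates 1 to 4 (G1 to G4) left of normal brain replicates 1 to 3 (N1 to N3), each panel with its own axis from 0. The 10 member genes sum to 21119 to 22808 on GL261 arrays and 36469.9 to 42490.0 on normal brain arrays, the pan-macrophage sums overlap, and the endothelial and erythroid bars of GL261 replicate 2 stand above those of the other GL261 arrays.

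Other genes attributed to border-associated macrophages were called in both directions. Of 32 such genes listed, 27 were measured and 24 tested, of which 5 fell and 5 rose, with a median log2 fold change of 0.07. The share called was 20.8% in each direction, against 4.2% lower and 5.92% higher over all genes tested. Among the 5 that fell were Hpgd, which encodes a prostaglandin-degrading enzyme (fell by 2.89), the lectin gene Clec10a (fell by 1.40), the ubiquitin ligase gene Wwp1 (fell by 1.03) and the transcription factor gene Maf (fell by 0.99, limma adjusted p = 0.00264). The signal of Maf was 5412, 5624, 5112 and 6490.0 on the GL261 arrays, against 9798, 10949 and 13098 on the normal brain arrays. Among the 5 that rose were the fatty acid and lipoprotein receptor gene Cd36 (log2 fold change 1.42), the lectin gene Clec4n (1.14), the iron exporter gene Slc40a1 (0.98) and the chemokine receptor gene Ccr1 (0.70, limma adjusted p = 0.0161). The uncalled genes with the highest levels, Tgfbi and Ms4a7, had log2 fold changes of 0.11 and -0.06 (limma adjusted p = 0.759 and 0.857), and both changed sign in some alternative settings. The remaining 2 called genes, named after their values were seen, were the neuropilin gene Nrp1 (log2 fold change -0.83) and the haem oxygenase gene Hmox1 (0.51). In the fits without 1 array, 5 to 6 of the list were called lower and 2 to 6 higher. The number higher was 2 without normal brain replicate 3, and 3 when GL261 replicate 3, GL261 replicate 4 or normal brain replicate 2 was the one left out. Over all genes, 305 to 761 were called higher in these fits, against 718 with no array left out. Cd36 was called in 2 of the 7 fits that left out an array, and Ccr1 in 6, all but that without normal brain replicate 3 (adjusted p = 0.0503). With the mean of all probe sets of a gene, Ccr1 (limma adjusted p = 0.228) and Slc40a1 (0.0593) were not called.

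Homeostatic microglia genes, the marker set of the other resident macrophage of the brain, also had lower values in GL261. Of 12 tested, 8 were called lower and 0 higher by limma (9 and 0 at an unadjusted p under 0.05), with a median log2 fold change of -0.68. Over all genes tested, 4.2% were called lower and 5.92% higher. The purinergic receptor gene P2ry12 fell by 1.28 and the fractalkine receptor gene Cx3cr1 fell by 0.71, with Cx3cr1 called in 3 of the 7 fits that left out an array. Their summed signal over 15 genes was 21748 to 31261 in GL261, highest in replicate 2, and 43163 to 48444 in normal brain. Of 16 pan-macrophage genes tested, 1 was called higher, Mertk (log2 fold change 1.06, limma adjusted p = 0.0243, called in 2 of the 7 fits that left out an array), and 0 lower, with 1 higher and 2 lower at an unadjusted p under 0.05, and the median was -0.13. Of 10 monocyte genes 5 were called higher and 1 lower. The difference between the lists was not tested.

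**Figure D5:**
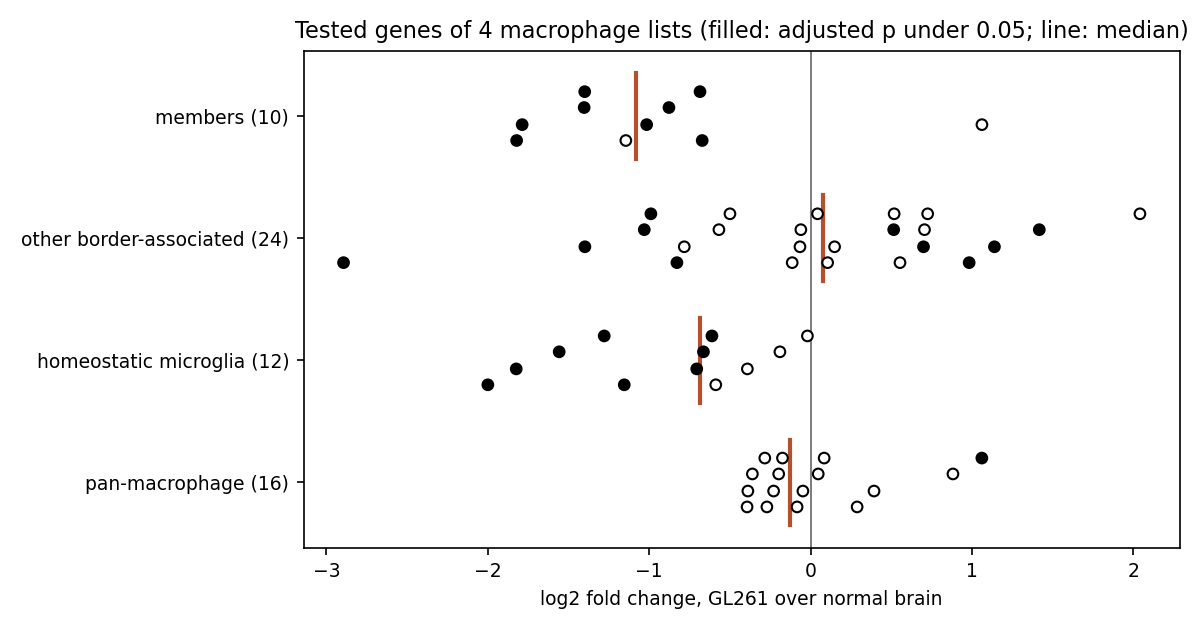
Each point is the log2 fold change of GL261 over normal brain of 1 tested gene, filled where the adjusted p is under 0.05, in rows for the 10 member genes, 24 other border-associated, 12 homeostatic microglia and 16 pan-macrophage genes, with a line at the median. The medians are -1.08, 0.07, -0.68 and -0.13.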

How the data were processed

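The deposited values are MAS5 signal intensities on a linear scale, 1 per probe set, made by the authors with MAS5, per the submitters' processing notes. Its version is not given in the sources used here. The arrays shared a mean of about 500 without the lowest and highest 2% of values, and were not pooled. Of 45101 probe sets, 64 were controls. The table held 0 columns of other samples.

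Fold changes are on the log2(signal + 6) scale, with the 20th percentile of the signals (6) as pseudocount, so those of dim genes are understated. Each gene was represented by its 1-symbol probe set with the highest mean. Genes whose mean was above the 40th percentile of probe set means (log2 4.93) were tested, which left 12125, and likewise 27022 probe sets in a second fit. GL261 was compared with normal brain with limma 3.58.1 in R 4.3.3, with variances that follow the mean signal, two-sided tests and adjustment by Benjamini-Hochberg over all features, and every adjusted p is from limma. Figures were drawn with matplotlib 3.10.9 in Python 3.11.15. The number of arrays limits the precision. The fit was tested on simulated data.

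The members, the other lists and the rule for named genes were chosen with earlier results of these data known. All members were named. From the other border-associated list, up to 4 called genes in each direction and the 2 uncalled ones with the highest mean were named, and from each other list the called gene with the largest change or, with none called, the one with the smallest p. Adgre1, Csf1r, Ptprc, P2ry12 and Cx3cr1 were always included, as were the genes most alike to Mrc1 and Cd163. Symbols were checked against RefSeq by gene ID, and 0 of the listed ones changed. Alternatives were the pseudocount, the filter, the scaling, the variance model, array weights, a replicate block, a hybridisation control covariate, the mean of all probe sets and left-out arrays.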

Additional observations from a re-analysis of the deposited data

Results flagged for a closer look

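Of 20 sets of 4 GL261 values checked (18 member probe sets and the Gapdh and Actb ratios), 2 had 1 array far from the others, where chance alone gives about 1 in 20. For Mrc1, GL261 replicate 2 was at log2 12.21 and the other GL261 arrays at 12.83 to 12.92, a gap of 0.871 of the group's range. Without that array Mrc1 had a log2 fold change of -0.52 (limma adjusted p = 0.0652). For Lyve1 probe set 1429379_at, GL261 replicate 3 was at log2 2.88, under background, and the other GL261 arrays at 4.56 to 4.83, a gap of 0.864 of the range. Without replicate 3 this probe set had a log2 fold change of -2.09 (limma adjusted p = 0.167).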

How the results depend on the processing

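Over 20 alternative settings the 10 member genes gave 199 fold changes. Of these, 149 kept their direction and their side of the threshold, 50 kept the direction but lost the call and 0 changed sign. For genes whose groups did not overlap, the settings that left out arrays could not change the sign. Lyve1 did not pass the filter at the 60th percentile. Member genes called lower numbered 5 without a filter, with median centring or with array weights, 3 with variances that do not follow the signal, and 4 without normal brain replicate 1 and GL261 replicate 2 together. Over all genes, 394, 305, 398, 173 and 325 were called lower in these settings in that order, against 509 in the main fit. Member genes called lower numbered 4 to 6 without 1 array. Member probe sets called lower numbered 1 with variances that do not follow the signal, 5 without that pair of arrays and 4 to 8 without 1 array. Of the other border-associated genes, 3 were called lower and 2 higher with variances that do not follow the signal, and 3 higher with median centring, centring on pan-macrophage genes or the mean of all probe sets. Without 1 array, 2 to 6 were higher. With the replicate number as a block, which leaves GL261 replicate 4 without weight, 5 member genes were called lower and 3 other border-associated genes higher. Over all genes, 503 were called lower and 501 higher with the block. The replicate numbers are only shared labels, since deviations of same-numbered arrays correlated at 0.0792, -0.00754 and 0.031. Changes of sign were found for Siglec1 probe set 1427668_at (-0.064 without normal brain replicate 2), Tgfbi (-0.018 with the block and without GL261 replicate 4) and Ms4a7 (0.11 with quantile normalization, 0.069 with the hybridisation covariate, and 0.011 without normal brain replicate 3, 0.017 without GL261 replicate 1 and likewise without replicate 2), none of them called. Their ranges without 1 array were -0.064 to 1.04, -0.018 to 0.24 and -0.15 to 0.017. The cause was not tested. Lyve1 and the dim Siglec1 and Igfbp4 probe sets lay near background, which limits their precision.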

Other observations

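The tested genes whose pattern over the 7 arrays was most like that of Mrc1, by the root mean square difference of log2 values centred on each gene's mean, were Igk (0.0702), Hsph1, a heat shock co-chaperone gene (0.108), and Cited2, a transcriptional regulator gene (0.112). All 3 were called lower, with log2 fold changes of -0.76, -0.63 and -0.68 (limma adjusted p = 0.0260, 0.0295 and 0.0348), and they were called in 4, 2 and 2 of the 7 fits that left out an array. With the mean of all its probe sets, Igk was not called (limma adjusted p = 0.361). Those most like Cd163 were Oxt, the oxytocin gene (0.226), the flavin monooxygenase gene Fmo2 (0.296) and the chloride channel gene Clcn2 (0.314). Their log2 fold changes were -1.46, -1.58 and -1.62, and 0 of them was called by limma, although all 3 had an unadjusted p under 0.05 (0.0182, 0.00819 and 0.00789). Fmo2 was above background on 2 of the 4 GL261 arrays. Since all were chosen by likeness over the same 7 arrays, fold changes near those of Mrc1 and Cd163 follow from the choice. They are a description and no separate result.

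Called genes of B cells, neutrophils and erythroid cells were lower in GL261, and those of the choroid plexus epithelium went both ways. Among all genes tested, 4.2% were called lower and 5.92% higher. The choroid plexus gene Ttr fell by 5.97 and was above background on 3 of 4 GL261 arrays. The 9 choroid plexus genes measured summed to 151 to 764 in GL261 and 2070 to 3140 in normal brain, and 2 passed the filter, of which the water channel gene Aqp1, named after its values were seen, was called higher (log2 fold change 3.52, limma adjusted p = 0.0142). Aqp1 was above background on 1 of 3 normal brain arrays, and its normal brain mean of log2 3.95 was under the filter, so it was tested only through its GL261 level. Of 5 B cell genes tested 4 fell, led by Ms4a1 (log2 fold change -3.73, and -4.35 without GL261 replicate 2), and of 8 neutrophil genes 6 fell, led by Ngp (-4.66, and -5.57 without GL261 replicate 2). The haemoglobin gene Hbb-b2 had a signal of 4187 on GL261 replicate 2 and far less on the other GL261 arrays, and its log2 fold change of -5.40 was -6.69 without that array and -4.74 without GL261 replicate 1. Of 6 mural genes 1, Notch3, was called higher (limma adjusted p = 0.0470, and called in 1 of the 7 fits that left out an array). It was above background on 1 of 3 normal brain arrays, and its normal brain mean of log2 4.17 was under the filter, so it too was tested only through its GL261 level. Of 9 dendritic cell genes tested, 1 rose, Itgax (log2 fold change 1.13), and 1 fell, Flt3 (-1.12, limma adjusted p = 0.0205, named after its values were seen), with 7 of the 9 values negative and a median of -0.63. The coagulation factor gene F10 was the monocyte gene with the largest change, at 2.41, and Siglech the microglia gene with the largest, which fell by 2.00. The leukocyte gene Ptprc (-0.36) and the receptor gene Csf1r (-0.28) were not called (limma adjusted p = 0.163 and 0.394).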
